A study of Mus musculus with 2 samples.

Results

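The miR-23a/27a/24-2 and miR-23b/27b/24-1 clusters were examined in small RNA from plasma extracellular vesicles (EVs) of exercised and sedentary mice. Their members were taken by name from the deposited table of mature miRNA counts, which gave 7 species among 1982 listed, and of all listed species 117 had a count. The 7 species were mmu-miR-23a-3p, mmu-miR-23a-5p and mmu-miR-27a-3p of the first cluster, mmu-miR-23b-3p, mmu-miR-23b-5p and mmu-miR-27b-3p of the second, and mmu-miR-24-3p, which both clusters encode. The sEV library came from mice of the C57BL/6 strain, wild type, 8 weeks of age and fed normal chow, which stayed sedentary. The eEV library came from mice of the same genotype, strain, age and diet after 3 days of treadmill acclimation and a later 60-min run to exhaustion, with belt speeds rising from 10 to 24 m/min. For each library the plasma of 20 mice, about 10 ml, was pooled and its EVs were isolated by size exclusion, so that each group is a single library without replicates. The sEV library had a total of 2851 miRNA counts and the eEV library 820. Where no read was counted, a species may still have held 3 counts, equal to 0.105% of all counts in sEVs and 0.366% in eEVs. All intervals and limits cover counting error only, because each group is a single pooled library. The reads also carried no molecular identifiers, so repeated reads of a molecule could not be told apart and the intervals may be too narrow.

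The clusters are paralogs, copies of an ancestral unit that gives rise to a miR-23, a miR-27 and a miR-24 from a common primary transcript. A miRNA hairpin is cut into a 5p and a 3p arm, of which usually one is loaded into an Argonaute protein and recognises its targets mainly through the seed, bases 2 to 8. These miRNAs are widely expressed and are known for roles in endothelial, blood and muscle cells. miR-23a in particular is known to repress the muscle ubiquitin ligases that act in atrophy, and miR-27 to restrain adipocyte differentiation. In blood work miR-23a-3p is also commonly measured as a stable plasma species against which red cell lysis is judged.

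The mature sequences show how closely the members resemble each other. RefSeq (GRCm38.p6) gave a mature sequence for 6 of the 7 members, all but mmu-miR-23b-3p. They are printed 5′ to 3′ with the seed in capitals, the dominant species first.
mmu-miR-23a-3p: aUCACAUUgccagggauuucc
mmu-miR-27a-3p: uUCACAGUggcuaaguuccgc
mmu-miR-27b-3p: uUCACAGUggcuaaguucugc
mmu-miR-24-3p: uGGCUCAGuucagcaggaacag
mmu-miR-23a-5p: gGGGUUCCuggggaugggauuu
mmu-miR-23b-5p: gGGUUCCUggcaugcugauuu
mmu-miR-27a-3p and mmu-miR-27b-3p shared their seed and differed at a single base (C19U, miR-27a-3p base first, counted from the 5′ end). The seeds of the miR-23 and miR-27 3p arms had the first 5 letters in common. No other listed species with a RefSeq sequence had the seed of mmu-miR-23a-3p or of either miR-27, and the 4 others with the seed of mmu-miR-24-3p had 0 counts in both libraries.

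The hairpins of the miR-23 paralogs are shown because the results turn on telling these apart. The capitals mark the longest stretch that the hairpins have in common.
Mir23a: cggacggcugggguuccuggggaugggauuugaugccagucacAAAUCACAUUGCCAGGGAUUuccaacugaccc
Mir23b: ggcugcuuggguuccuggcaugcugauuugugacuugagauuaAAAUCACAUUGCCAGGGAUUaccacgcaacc
The shared stretch was 20 bases long and held bases 1 to 18 of the 21-base mmu-miR-23a-3p, so only its last 3 bases lay outside it. Among 141767 GENCODE M21 transcripts, the whole sequence of mmu-miR-23a-3p was found in the Mir23a hairpin alone. Its first 18 bases and its first 16 bases were each found in Mir23a and Mir23b and in no other gene, on either strand. The miR-27 hairpins likewise shared 20 bases, holding bases 1 to 18 of the mature 3p arm. The miR-24 hairpins shared 28 bases, which held all 22 bases of mmu-miR-24-3p, and its counts could therefore not be assigned to either cluster.

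In GRCm38 the Mir23a, Mir27a and Mir24-2 hairpins lie on the plus strand of chromosome 8, from 84208518 to 84208921, a span of 404 bases. No other annotated gene overlapped Mir23a or Mir27a, and the lincRNA Gm26532 began at 84208920, within the last bases of Mir24-2. The bases of mmu-miR-23a-3p are 84208563 to 84208583. The Mir23b, Mir27b and Mir24-1 hairpins lie on the plus strand of chromosome 13, from 63300484 to 63301275, over 792 bases. All 3 are inside the protein-coding gene 2010111I01Rik on the same strand and inside Fancc on the opposite strand. Mir23b fell in an intron of 2010111I01Rik, Mir27b lay within an exon of an annotated transcript of it, from 63300605 to 63300793, and Mir24-1 overlapped exons of others. The count table holds no coordinates, and positions are those of the reference annotation.

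**Figure D1:**
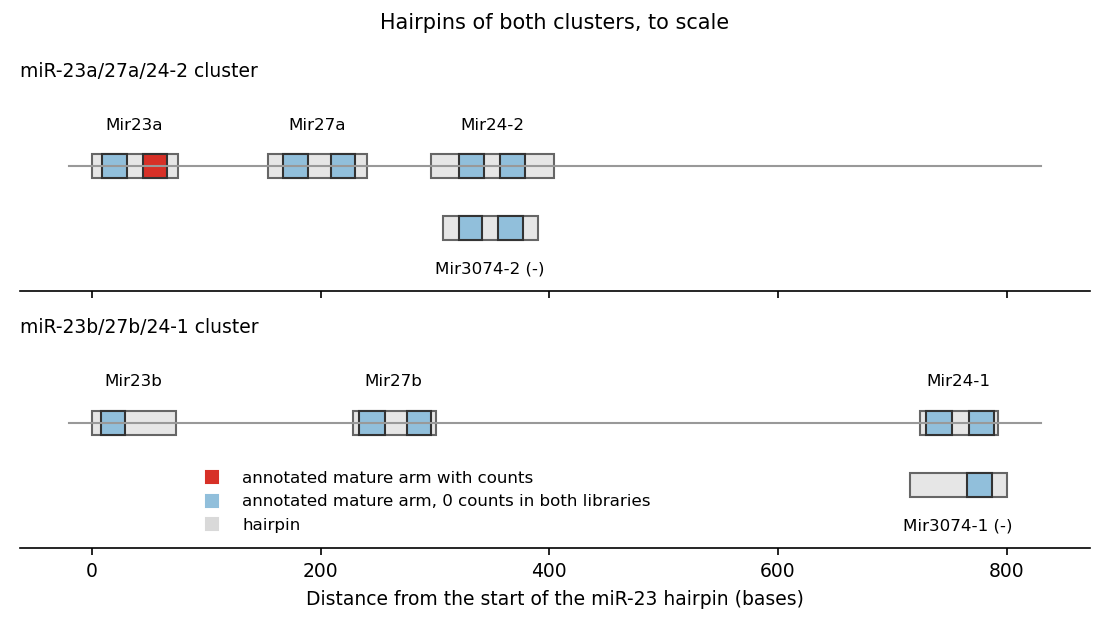
Hairpins (grey) and annotated mature arms (coloured) of both clusters, drawn to scale against the distance in bases from the start of the miR-23 hairpin, with hairpins of the minus strand on a lower line. A single arm, the 3p arm of Mir23a, had counts in the sEV and eEV libraries, and each of the other arms drawn had 0. Arms without a RefSeq entry are not drawn.

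Of the 7 members, mmu-miR-23a-3p was counted in both libraries and the other 6 had 0 counts in both. It had 1289 counts in sEVs, a share of 45.2% (95% Wilson interval 43.4% to 47.0%). It had 362 counts in eEVs, a share of 44.1% (40.8% to 47.6%). The dominant arm thus held a similar share of both libraries, and the intervals overlapped. Detection of 1 member in 7 stood beside 4.28% of the 1915 listed mouse species with a count in sEVs and 3.45% in eEVs. Because a share is relative, a higher share of vesicles carrying a miRNA, more copies in each vesicle and less of the other miRNAs cannot be told apart.

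The seed paralog mmu-miR-23b-3p had 0 of 2851 counts in sEVs, which allows a share of up to 0.105%, and 0 of 820 in eEVs, which allows up to 0.366%. At the lower end of the exact interval of their ratio, mmu-miR-23a-3p was at least 349-fold higher in sEVs and at least 97.6-fold higher in eEVs, and set against 3 counts for its paralog the ratios were 430 and 121. Of the counts on both paralogs, the share on mmu-miR-23a-3p was 100%, with an exact Clopper-Pearson interval from 99.7% in sEVs and from 99.0% in eEVs. How reads that end within the 18 bases common to both hairpins were assigned is not given in the sources used here. These ratios therefore compare the counts under each name, and the part of read assignment in the 0 of mmu-miR-23b-3p was not tested. Among other groups of listed species that share a RefSeq seed, 4 had 10 or more counts in sEVs. In 2 of these every count fell on 1 species, and in eEVs the same held for 1 of 2 groups.

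The arms and cluster mates gave the same picture. mmu-miR-23a-5p, the other arm of the dominant hairpin, had 0 counts in both libraries. mmu-miR-27a-3p, whose hairpin starts 154 bases after the start of Mir23a on the same strand, had 0 counts in both. mmu-miR-24-3p, the member with a hairpin in each cluster, had 0 counts in both as well. Each of them was subject to the same limits as mmu-miR-23b-3p. The counts of mmu-miR-23a-3p were thus again at least 349-fold and 97.6-fold those of each mate in sEVs and eEVs. Leaving mmu-miR-24-3p out of the cluster did not alter the 100% share of mmu-miR-23a-3p.

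The second cluster had no counts in either library. mmu-miR-23b-3p, mmu-miR-23b-5p and mmu-miR-27b-3p were each at 0 in sEVs and in eEVs. The 4 further arms of the same 6 hairpins that the table lists, mmu-miR-27a-5p, mmu-miR-24-2-5p, mmu-miR-27b-5p and mmu-miR-24-1-5p, were also at 0. So were mmu-miR-3074-5p, mmu-miR-3074-1-3p and mmu-miR-3074-2-3p, of the hairpins that lie opposite Mir24-2 and Mir24-1 on the minus strand. Counts for both loci were therefore found on 1 of 14 names examined. Over all listed mouse species 6.11% had a count in either library, so a 0 was the usual value for a listed name.

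**Figure D2:**
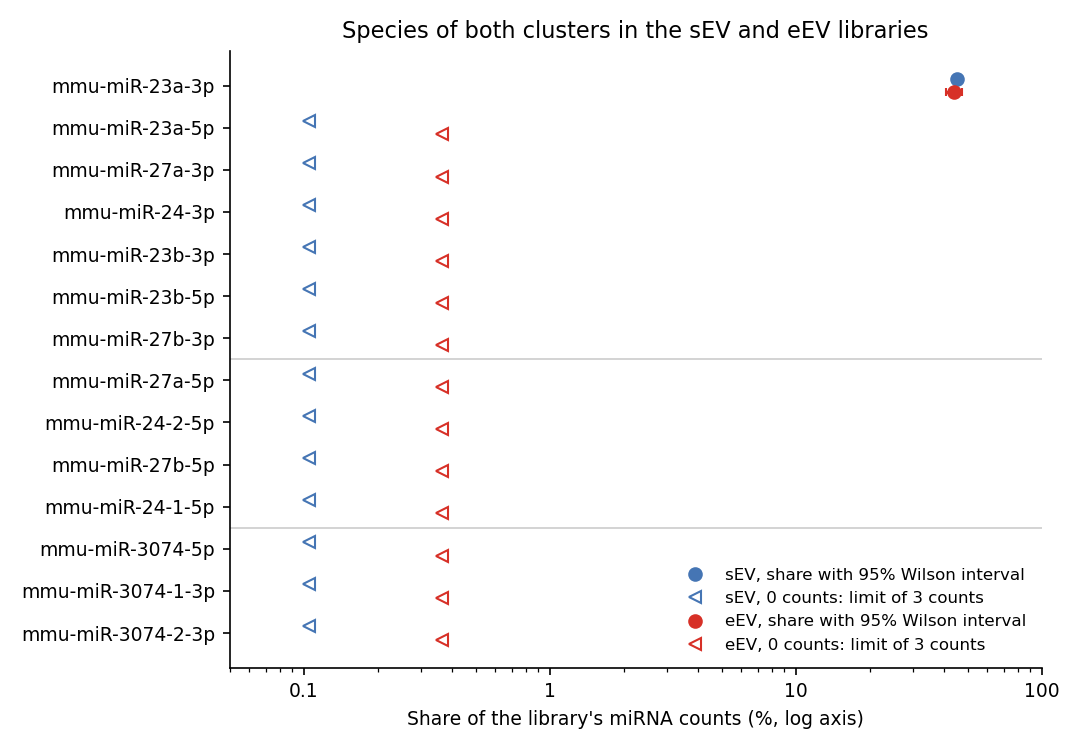
Share of each library's miRNA counts in percent (log axis) for the 7 members, the 4 other arms of their hairpins and the 3 species of the opposite strand, with sEVs in blue and eEVs in red. Filled points are shares with 95% Wilson intervals and open triangles are the limits for 0 counts, 0.105% in sEVs and 0.366% in eEVs. Only mmu-miR-23a-3p, at 45.2% and 44.1%, lies above these limits.

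Between the libraries, the share of mmu-miR-23a-3p in eEVs was 0.976 of that in sEVs (exact 95% interval 0.867 to 1.10), a log2 fold change of -0.03 (-0.21 to 0.13). With its counts set against all remaining counts, a two-sided Fisher's exact test returned p = 0.605, and 0.832 after Benjamini-Hochberg adjustment over the 117 detected species. With single libraries this is a comparison of 2 sets of reads, and no statement about exercise among mice can be tested. At this depth a difference within that interval was not detectable, and the interval does not reach a 2-fold change. By the same test 23.1% of the detected species differed between the libraries, the share in eEVs being higher for 22 and lower for 5. Over the 61 species with more than 3 counts in a library, the share was lower in eEVs for 48 and higher for 13. That filter was passed more easily in the sEV library, which had 3.48 times the counts, so this tally gives no direction. Of the 22, 13 had 3 counts in eEVs and 0 in sEVs, a share of 0.366% beside a limit of 0.105%, so each call rests on 3 counts. The calls fell to 13 when the adjustment was over species with 5 or more counts, and to 3 over every listed species. The exact test of edgeR called 5 species with an assumed BCV (biological coefficient of variation) of 0.1 and 1 with one of 0.4. With counts of 3 or fewer set to 3, 31 of the 61 species (50.8%) stood 2-fold or more apart. Of these 31, 12 had 4 or 5 counts in sEVs and 0 or 1 in eEVs, and came out higher in eEVs only because the eEV count was set to 3, so no 2-fold change was found for them. The remaining 19 (31.1%) were 2-fold apart in the direction of their counts, 9 of them lower and 10 higher in eEVs. The only member with a fold change lay at -0.03 on the log2 scale, beside a median of -0.17 over the 17 species with more than 3 counts in both libraries, of which 11 were lower and 6 higher in eEVs. The sign of this small difference of mmu-miR-23a-3p depended on the scaling. With TMM factors of edgeR the log2 fold change was 0.14, and with DESeq2 size factors it was 0.49. For the other 6 members no fold change could be given, since both libraries were at 0.

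**Figure D3:**
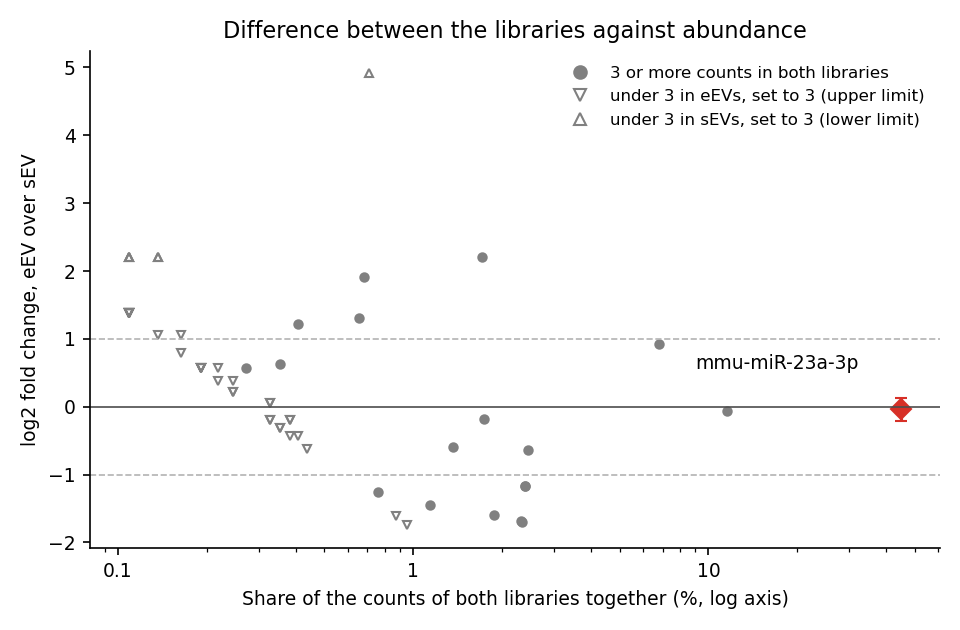
The log2 fold change, eEV over sEV, of the 61 species with more than 3 counts in a library against their share of the counts of both libraries together in percent (log axis), with dashed lines at 2-fold. mmu-miR-23a-3p (red diamond, exact 95% interval) lies at -0.03 at the right-hand end, and grey circles are other species with 3 or more counts in both libraries. Open triangles are species with fewer than 3 counts in 1 library, set to 3 there, so that those pointing down are upper limits and those pointing up lower limits of the fold change.

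Among the 14 other species with 5 or more counts in both libraries, those with the log2 fold change nearest to that of mmu-miR-23a-3p were mmu-miR-6240, mmu-miR-6236 and mmu-miR-3535. mmu-miR-6240 lay at -0.06 on the log2 scale (-0.41 to 0.27), from 334 sEV and 92 eEV counts. mmu-miR-6236 lay at -0.17 (-1.18 to 0.73), from 51 and 13 counts. mmu-miR-3535 lay at -0.59 (-1.90 to 0.51), from 42 and 8 counts. Likeness over 2 libraries describes these libraries only, and each of the 3 intervals spanned the whole interval of mmu-miR-23a-3p.

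In both libraries mmu-miR-23a-3p ranked 1st. It had 3.86 times the counts of mmu-miR-6240, the second species, in sEVs and 3.93 times in eEVs. The third was mmu-miR-466i-5p, counted 162 times in the sEV and 88 times in the eEV library. mmu-miR-23a-3p had 7.96 and 4.11 times its counts. Whether counts of different species follow their relative abundance in the vesicles was not tested. The other 81 species of the sEV library had a median of 7 counts and together held 1562. The other 65 species of the eEV library had a median of 3 counts and held 458. The counts of the next 22 species had to be added in sEVs, and of the next 19 in eEVs, to reach those of mmu-miR-23a-3p. The curves of ranked shares therefore start from nearly the same height and gap.

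**Figure D4:**
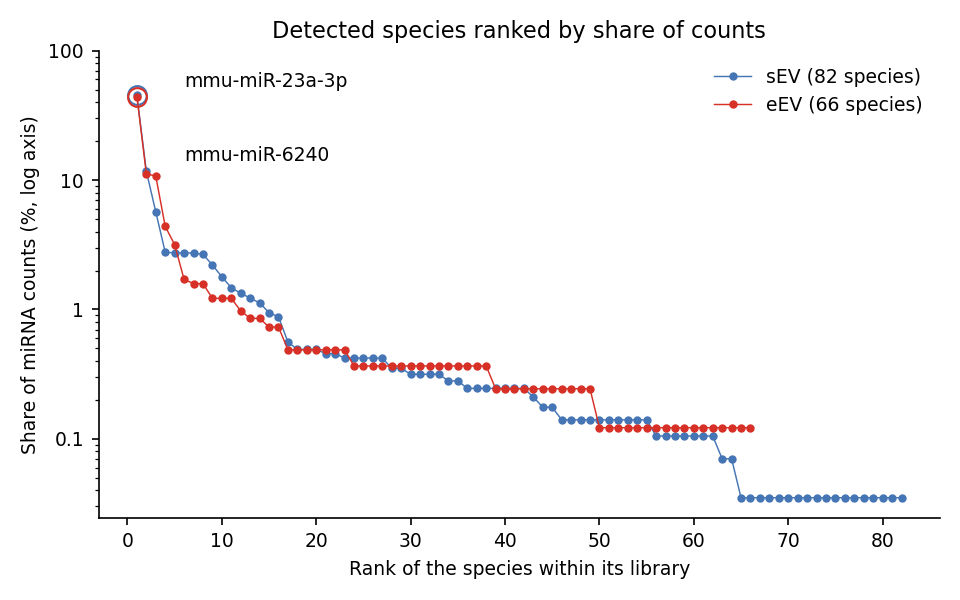
Share of miRNA counts in percent (log axis) against the rank of each detected species within its library, for sEVs (blue, 82 species) and eEVs (red, 66 species). The circled points are mmu-miR-23a-3p, at 45.2% and 44.1%, followed by mmu-miR-6240.

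To set the cluster beside others, neighbouring hairpins on the same strand with at most 10 kb between them were grouped in the GENCODE annotation, which gave 80 clusters with 2 or more listed hairpins, of which 24 had a count. Apart from the miR-23a/27a/24-2 cluster, 11 had 10 or more counts in sEVs, and in 6 of these every count fell on 1 hairpin. In eEVs the same held for 3 of 7. Counts on a single hairpin of a cluster were thus also found elsewhere, but the 11 clusters had between 10 and 71 counts in sEVs and the 7 had 10 to 36 in eEVs. One of those with a single hairpin was the Mir144 cluster, in which mmu-miR-451a had 27 sEV and 36 eEV counts while both arms of mmu-miR-144 were at 0. In the let-7a-1 cluster, named here after its values were seen, all 3 hairpins had counts in both libraries and the leading one held 53.5% in sEVs and 61.5% in eEVs. A species encoded by several hairpins was counted with each of them. For the balance of arms, 23 other hairpins had both arms listed and 10 or more counts in sEVs, and in 10 of these 1 arm held all the counts. Their leading arm held a median of 80.0% of the counts, beside 100% for the 3p arm of Mir23a. In 5 of the 23 both arms carried identical counts, which sets their share at 50%. Over the 18 hairpins with unequal arms the median was 100%, equal to the share of the 3p arm of Mir23a. In eEVs 6 other hairpins qualified, 3 of them with all counts on 1 arm, with a median of 88.2%, and 1 of the 6 had identical arms. Over the 5 with unequal arms the median was again 100%. Whether the miR-23a/27a/24-2 cluster differs from these was not tested.

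**Figure D5:**
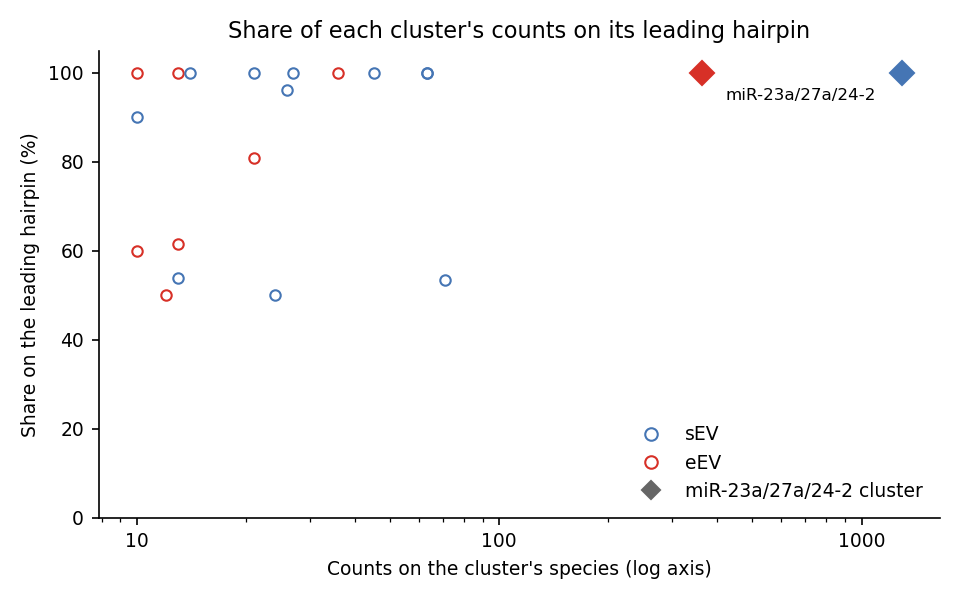
Share of a cluster's counts on its leading hairpin in percent against the counts of the cluster (log axis), for clusters with 10 or more counts in a library, with sEVs in blue and eEVs in red. The filled diamonds are the miR-23a/27a/24-2 cluster, at 100% with 1289 and 362 counts, and the other clusters (open circles) have at most 71 counts.

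The ratio of mmu-miR-451a, the most abundant miRNA of red cells, to mmu-miR-23a-3p is commonly read as a measure of red cell lysis in plasma. In sEVs there were 47.7 counts of mmu-miR-23a-3p for each count of mmu-miR-451a (exact 95% interval 32.7 to 72.7). In eEVs there were 10.1 (7.13 to 14.6). The log2 ratio of mmu-miR-451a to mmu-miR-23a-3p was -5.58 (-6.18 to -5.03) in sEVs and -3.33 (-3.87 to -2.83) in eEVs, intervals that did not overlap. The ratio was 4.75 times higher in eEVs (exact 95% interval 2.76 to 8.24), and this value does not depend on the library totals. The share of mmu-miR-451a itself was 0.947% in sEVs and 4.39% in eEVs (adjusted p = 9.87e-08, Fisher's exact test), beside the close shares of mmu-miR-23a-3p. In edgeR's exact test its adjusted p was 2.65e-05 with an assumed BCV (biological coefficient of variation) of 0.1 and 0.390 with one of 0.4, so the call was lost at the larger assumed spread. Of the 8 red cell species on the marker list, only 2 were detected, with 34 and 36 counts in all. mmu-miR-16-5p had 7 counts in the sEV library and 0 in the eEV library, and the arms of mmu-miR-144, mmu-miR-486a and mmu-miR-486b had 0 in both. The part of red cell lysis in this ratio was not tested.

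The 5 white blood cell species held 8.03% of the sEV library but 3.41% of the eEV library. The 5 platelet and endothelial species held 1.79% and 1.95%, but its members did not all go the same way. mmu-miR-191-5p rose from 0.491% in sEVs to 1.22% in eEVs and mmu-miR-126a-5p from 0.316% to 0.732%. mmu-miR-126a-3p, mmu-miR-21a-5p and mmu-miR-223-3p had 14, 9 and 5 counts in sEVs and 0 in eEVs. The liver species, of which 2 of 3 were detected, had 20 counts in the sEV library and 0 in the other. The 5 species of striated muscle were all at 0 in both libraries. Their part in the share of mmu-miR-23a-3p was not tested.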

How the data were processed

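Small RNA from plasma EVs was sequenced over 50 nt from a single end, as 1 library of sEVs and 1 of eEVs, each pooled from 20 mice. The authors deposited raw counts of reads per mature miRNA, without normalization, and a table of fractions in which each count is divided by the library's total. The fractions differed from the counts over the totals by at most 4.85e-10. The aligner, miRNA release, genome build and any count filter are not given in the sources used here. All columns were used, and 67 listed names were not of mouse and had 0 counts.

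A species was detected at 1 or more counts. Shares were given Wilson intervals and ratios exact intervals, at 95%. Fold changes were ratios of shares, eEV over sEV. Fisher's exact test, two-sided, was adjusted by the Benjamini-Hochberg method over 117 detected species (threshold 0.05), since edgeR's quasi-likelihood test cannot be fitted with 1 library per group. Fold limits for species at 0 used 3 counts. The intervals and the test were checked on simulated data drawn under the same counting model that they assume. This check held no spread between pools and says nothing about such spread.

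The species named were the members, the other arms of their hairpins, species sharing their seeds, the 3 most abundant of each library, the 3 nearest in fold change, mmu-miR-451a and marker lists. Members and lists were chosen with earlier results of these data known. Sequences and hairpin positions came from RefSeq (GRCm38.p6) and overlaps from GENCODE M21. Of the detected species, 113 matched a hairpin gene, by its name or through the RefSeq mature entry, and 99 a mature sequence. Alternatives were other totals, TMM and DESeq2 size factors, added counts, other adjustments, other thresholds for calls and detection, and the exact test of edgeR at a biological coefficient of variation (BCV) that was assumed. Analyses used edgeR 4.0.16 and DESeq2 1.42.0 in R 4.3.3, and numpy 2.4.6, scipy 1.17.1 and matplotlib 3.10.9 in Python 3.11.15.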

Additional observations from a re-analysis of the deposited data

How the results depend on the processing

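No paired analysis was possible because each group is 1 library, and for the same reason no replicate could be left out. The depth of 2851 and 820 counts limits what can be said of the members at 0. Their detection did not depend on the minimum, with 1 of 7 members at 1 or more and at more than 3 counts in both libraries. Totals without mmu-miR-23a-3p gave no value for the other members, which were at 0. The share of mmu-miR-23a-3p rose to 47.6% in sEVs with arms of the same name and identical counts counted once. It rose to 66.6% in sEVs and 64.5% in eEVs when names taken as related to repeats and other RNA classes were left out of the totals. Its log2 fold change of -0.03 became 0.14 with TMM factors and 0.49 with DESeq2 size factors, and lay between -0.17 and -0.03 under the other 4 alternatives. With totals multiplied by TMM factors the direction of its test turned, with an adjusted p-value of 0.121 in Fisher's exact test, and the other alternatives gave adjusted p-values from 0.744 to 1, none below 0.05. The 27 species called became 13 when adjusted over species with 5 or more counts, 3 when adjusted over every listed species, and 5 and 1 in edgeR's exact test with an assumed BCV of 0.1 and 0.4. The 31 species 2-fold apart with counts of 3 or fewer set to 3 became 7 at a fold of 4, and 19 when species whose direction was turned by that setting were left out, an alternative added after seeing the data.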

Other observations

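For 22 pairs of detected 5p and 3p species with otherwise identical names, both arms had the same counts in both libraries. The dominant hairpin was not among them, with 1289 and 362 counts on its 3p arm and 0 on its 5p arm. The names taken as related to repeats and other RNA classes, 18 detected species in all, held 916 counts (32.1%) in sEVs and 259 (31.6%) in eEVs. They were chosen by name alone, and their sequences were not checked. Among them were mmu-miR-6240, mmu-miR-466i-5p, mmu-miR-6236 and mmu-miR-3535, compared with mmu-miR-23a-3p above. Together with mmu-miR-23a-3p the 18 species made up 77.3% of all sEV counts and 75.7% of all eEV counts.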
